A study of Homo sapiens with 36 samples.

Results

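MEC1 and EHEB are established human B-cell lines of leukaemic origin, and their vehicle-treated transcriptomes were set against each other here. The members were 6 of the 36 libraries of the series, 3 of MEC1 and 3 of EHEB. Their labels name the line and DMSO, the solvent in which the drugs of the study were given. The pair was chosen in part because it includes the line with the highest UGT2B17. Gene counts from RNA sequencing were the measurement. Both groups carried DMSO and no drug (0 µM). MEC1 cells were collected after 48 h and EHEB cells after 96 h, so line and culture time cannot be told apart in any difference given below. According to the methods of the study, MEC1 has a mutated p53 and EHEB a wild-type p53. Each side was 1 line. The labels do not say whether the 3 libraries of a line came from separate cultures, and the methods describe the results of the study in general as repeated in independent experiments without naming these libraries, so p-values measure the spread between these libraries, which may be in part technical. The remaining libraries hold the same lines with fludarabine, ibrutinib or idelalisib and the line JVM2 under the same 4 treatments. Genes of chromosomes X and Y were set aside, which leaves out BTK, the target of ibrutinib.

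Mature B cells carry a B-cell receptor made of immunoglobulin chains and the CD79 proteins, and read its signal through SYK, BTK, PLCγ2 and the phosphatidylinositol 3-kinase δ. p53 is a transcription factor that switches on genes of cell-cycle arrest, DNA repair and death when DNA is damaged, and MDM2 degrades it. UGT2B17 is an enzyme that joins glucuronic acid to steroids and drugs, and the study of which these libraries are part asked how it bears on drug response in chronic lymphocytic leukaemia (CLL).

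The 3 MEC1 libraries held between 37077174 and 46425576 counts and the 3 EHEB libraries between 42832321 and 47140796. Mitochondrially encoded genes took 0.396 to 0.608% of the counts in MEC1 and 1.27 to 1.66% in EHEB, and the 10 most abundant genes took 11.9 to 14.7% in all 6. Levels below are CPM, the counts of a gene relative to the size of its library, after TMM scaling of the 6 libraries, which sets aside differences in library composition. The B-cell identity of both lines was checked on 5 defining markers. CD22, CD79A, CD79B, MS4A1 (CD20) and PAX5 had means between 34.6 and 516 CPM in both lines. Markers of other cell types were at 0 in all 6 libraries for 2 of 15 T-cell, 4 of 12 myeloid, 1 of 9 NK-cell and 3 of 12 stromal and epithelial genes, among them CD3D, CD3G, LYZ, MPO and KRT19, and the others, given further on, were not. A gene was called when its adjusted p was below 0.05 in edgeR's quasi-likelihood F-test with Benjamini-Hochberg adjustment over all genes tested, and a positive log2 difference means higher in MEC1.

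The lines differed in most of what they expressed. Of 15971 genes tested outside X and Y, 10970 (68.7%) were called, 5216 (32.7%) of them higher in MEC1 and 5754 (36%) higher in EHEB. With a difference above 2-fold, 2878 genes (18.0%) were higher in MEC1 and 3371 (21.1%) in EHEB. The median log2 difference of all tested genes was -0.04. These shares are the background against which every count of list members below has to be read.

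**Figure D1:**
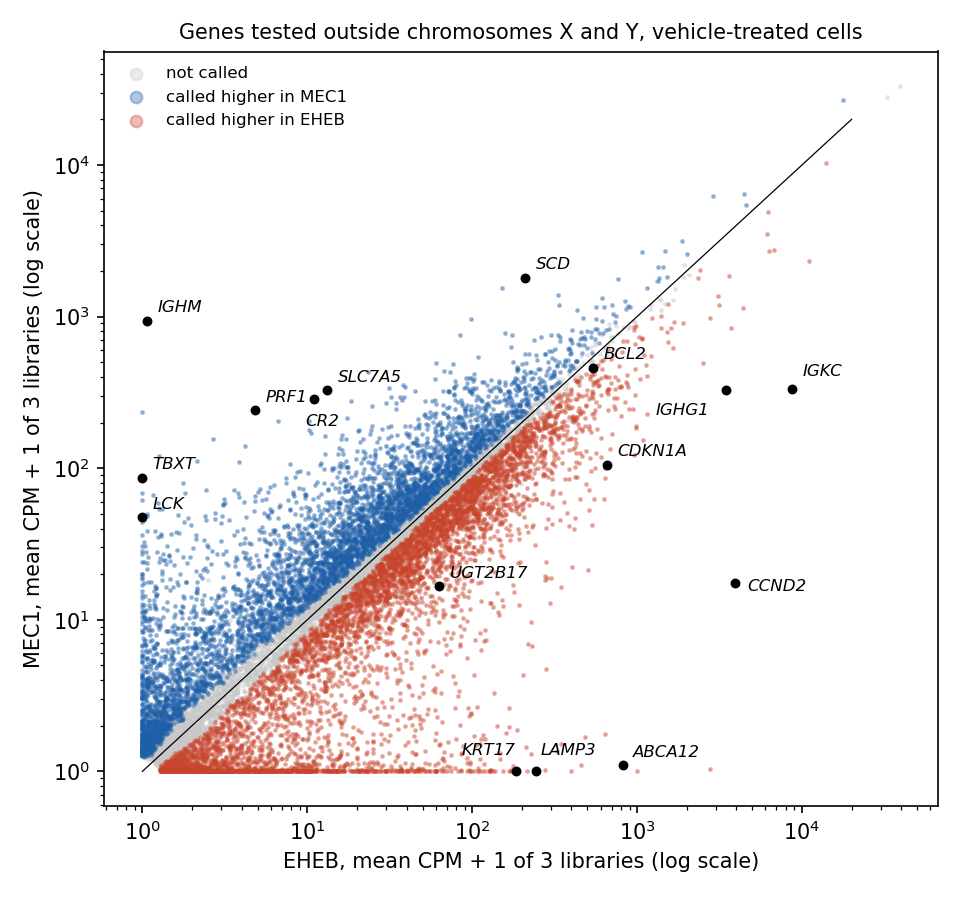
Mean CPM + 1 in the 3 EHEB libraries (horizontal, log scale) against the 3 MEC1 libraries (vertical, log scale) for 15971 genes tested outside X and Y; blue points were called higher in MEC1, red points higher in EHEB and grey points were not called. CCND2, at 3926 CPM in EHEB and 16.5 in MEC1, and IGHM, at 936 CPM in MEC1 and 0.0656 in EHEB, lie far from the diagonal, whereas BCL2 lies close to it.

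UGT2B17 was higher in EHEB by 3.93-fold. The gene lies on the minus strand of chromosome 4 at chr4:68537173-68576413 (GRCh38). The MEC1 libraries stood at 15.8, 15.1 and 16.2 CPM and the EHEB libraries at 65.4, 61.7 and 57.9 CPM. Every EHEB library was above every MEC1 library, and the log2 difference was -1.97 (SE 0.07, n = 3 per line, edgeR adjusted p = 1.2e-06). When the 9 DMSO libraries were scaled together, JVM2 under vehicle held 13.4 CPM ± 0.885 (SD, n = 3). EHEB was thus the highest of the 3 lines. The pair was chosen with this rank known, so the p-value of UGT2B17 is no independent support for it.

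The neighbouring UGT2B15 on chromosome 4, a close paralogue that also conjugates androgens, followed the same order. It was at 3.83, 4.24 and 1.62 CPM in MEC1 and at 14.04, 14.98 and 15.7 CPM in EHEB, a log2 difference of -2.20 (SE 0.33, edgeR adjusted p = 0.00093). Reads of such near-identical copies can be split by the counting, so the division between UGT2B17 and UGT2B15 is uncertain. Per kilobase of exon, UGT2B17 was at 23.98 CPM in EHEB and UGT2B15 at 6.99, against 6.11 and 1.51 in MEC1. UGT2A3, another member of this cluster, had 0 counts in MEC1 and 3.69, 4.21 and 3.39 CPM in EHEB, at least 54.8-fold higher when a floor of 3 counts per MEC1 library is assumed. UGT2B7, the main hepatic enzyme for opioids, had 2 counts over the MEC1 libraries and 402 over the EHEB libraries, a ratio of 208 (95% counting interval 57.3 to 1727). UGT1A6, of the other large UGT family, had 3 counts in MEC1 against 490 in EHEB, a ratio of 169 (interval 57.6 to 824). The paper names UGT1A6 as the most abundant UGT1A isoform in its cell models. How the counting divided reads among the UGT1A genes is not known, so the value of UGT1A6 alone is uncertain. These intervals cover counting error only. UGT2B4, UGT2B10, UGT2B11 and UGT2B28 were at 0 in all 6 libraries.

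The enzymes around glucuronidation did not share one direction. UGT8, which adds galactose and not glucuronic acid to ceramide, was at 23.99, 25.1 and 26.7 CPM in MEC1 and below 1 CPM in EHEB, with a log2 difference of 5.82 (SE 0.17). GUSB, the lysosomal enzyme that removes glucuronic acid, was 1.82-fold higher in MEC1, with libraries between 62.2 and 79.0 CPM there and between 33.2 and 42.8 CPM in EHEB. UGDH, which makes the donor UDP-glucuronic acid, was not called (79.0 CPM ± 6.06 in MEC1 and 66.9 ± 8.11 in EHEB, n = 3). Of the 11 tested genes of UGT and glucuronide handling, 2 were called higher in MEC1 and 6 higher in EHEB, with a median log2 difference of -0.23. This list was small and its summary unstable, since the median ran from -1.94 without a low-count filter to 0.11 with the stricter filter, 4 members were called higher in MEC1 without TMM and 3 higher in EHEB under the stricter filter. Leaving out the first EHEB library or any 1 MEC1 library moved the median to between -1.11 and -1.03.

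**Figure D2:**
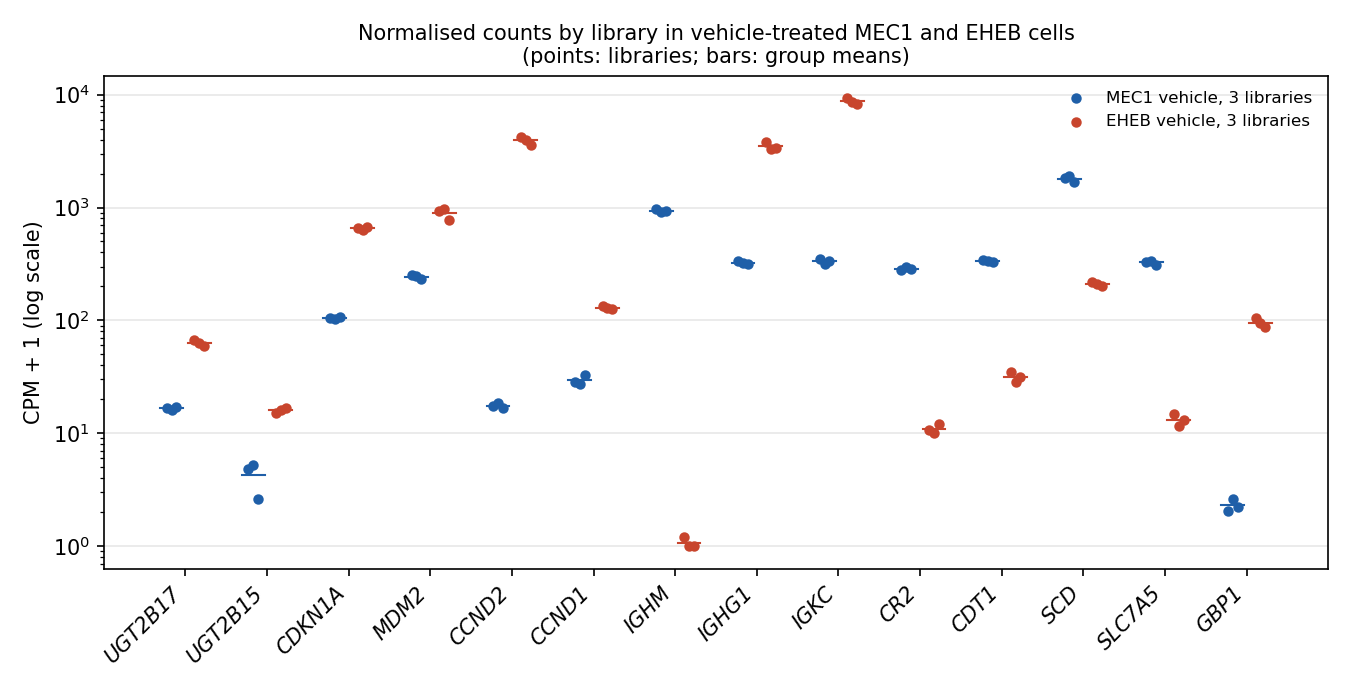
CPM + 1 (vertical, log scale) of 14 named genes in each vehicle-treated library; blue points are the 3 MEC1 libraries, red points the 3 EHEB libraries and short bars the group means. For each gene drawn the libraries of the lines do not overlap, but the share of all genes without overlap is not given. UGT2B17 lies between 57.9 and 65.4 CPM in EHEB and between 15.1 and 16.2 CPM in MEC1.

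Genes that p53 switches on were mostly higher in EHEB. Of 27 tested p53 targets, 23 were called higher in EHEB and 2 higher in MEC1, with a median log2 difference of -1.48. CDKN1A, which encodes the cyclin-dependent kinase inhibitor p21, was at 104, 102 and 107 CPM in MEC1 and at 652, 635 and 673 CPM in EHEB. MDM2 was at 253, 245 and 231 CPM in MEC1 and at 929, 978 and 781 CPM in EHEB. Both were therefore clearly separated, with log2 differences of -2.65 (SE 0.05) and -1.88 (SE 0.09).

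Several p53 targets were close to silent in MEC1. PHLDA3, an inhibitor of AKT, was at 0.493, 0.221 and 0.209 CPM in MEC1 and between 79.3 and 89.9 CPM in EHEB. SESN1, a stress sensor that restrains mTORC1, was at 1.14 to 1.23 CPM in MEC1 and 45.99 to 51.1 CPM in EHEB. SPATA18, which acts in mitochondrial quality control, had 0 counts in MEC1 and 35.2 to 39.1 CPM in EHEB, at least 542-fold higher. The exceptions were PMAIP1, which encodes the death protein NOXA and was 1.45-fold higher in MEC1, and POLH, a polymerase that copies past damaged bases, 1.32-fold higher. The call of PMAIP1 was lost when all 36 libraries were fitted together (edgeR adjusted p = 0.10). Among 14 tested regulators of p53, 3 were called higher in MEC1 and 8 higher in EHEB. CHEK1, the kinase of the replication checkpoint, was the leading one in MEC1, at 96.6, 106 and 105 CPM against 32.3, 19.9 and 25.7 CPM in EHEB.

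Genes of DNA replication and mitosis stood higher in MEC1 without exception in the lists used. All 35 tested replication genes were called higher in MEC1, with a median log2 difference of 1.99, and so were all 30 tested mitosis genes, with a median of 1.90. CDT1, which loads the replicative helicase, was at 345, 336 and 330 CPM in MEC1 and at 33.7, 27.4 and 30.5 CPM in EHEB. GINS2, a subunit of that helicase, showed a log2 difference of 3.24 (SE 0.07), and ORC6, of the origin recognition complex, one of 3.20 (SE 0.09). CCNA2, the cyclin of S phase and mitosis, was at 279, 275 and 284 CPM in MEC1 and at 36.7, 35.8 and 36.6 CPM in EHEB. Its partner kinase CDK1 was 6.20-fold, the mitotic exit factor CDC20 2.48-fold and the spindle checkpoint gene MAD2L1 6.75-fold higher in MEC1. In bulk libraries, a larger share of cycling cells and more RNA per cell cannot be told apart.

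The genes that govern entry into the cycle were divided between the lines. CCND2, cyclin D2, was at 16.4, 17.6 and 15.6 CPM in MEC1 and at 4241, 3926 and 3610 CPM in EHEB, a log2 difference of -7.89 (SE 0.10, edgeR adjusted p = 1.3e-07). CCND1, cyclin D1, was at 26.3 to 31.7 CPM in MEC1 and 124 to 132.6 CPM in EHEB, and RB1, the brake that cyclin D-dependent kinases release, at 59.0 to 62.9 and 460 to 641 CPM. On the other side, E2F1 was at 97.3 to 102 CPM in MEC1 and 11.5 to 14.7 CPM in EHEB, and E2F2 at 101 to 110 and 6.69 to 7.13 CPM. E2F factors switch on replication genes, and CCNE2, one of the cyclins that follow them, was 7.68-fold higher in MEC1. Of 22 tested G1 cyclins and CDK inhibitors, 12 were called higher in MEC1 and 8 higher in EHEB. MYC, singled out after its values were seen, was at 194, 10.2 and 157 CPM in MEC1 and 25.5, 38.2 and 34.2 CPM in EHEB, so that library 38 of MEC1 lay below all EHEB libraries. It was not called (edgeR adjusted p = 0.10).

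Sequence features known from such genes were looked for in the 250 bases before the start site, on both strands, in the RefSeq promoter windows of GRCh38.p14. The E2F-type letters TTTNNCGC were found in 13 of 31 replication genes with a window (41.9%) and in 10.9% of the 11108 tested genes with one. The letters TTTGAA, the core of the cell-cycle gene homology region, were found in 13 of 24 mitosis genes (54.2%) and in 12.6% of the tested genes with a window. These are matches of letters and not shown sites. Stretches of 60 bases upstream of the start sites of a pair of genes for each motif, outside annotated exons, are shown because these genes carry the difference and the letters. The match is in capitals, and the bases read 5′ to 3′ on the strand of the gene, with the letters of CDT1 and GINS2 on the opposite strand, where they read GCGNNAAA.
CDT1, chr16:88803728-88803787, plus strand: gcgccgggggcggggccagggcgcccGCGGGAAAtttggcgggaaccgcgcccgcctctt
GINS2, chr16:85688955-85689014, minus strand: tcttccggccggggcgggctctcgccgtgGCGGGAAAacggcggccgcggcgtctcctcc
CDK1, chr10:60778143-60778202, plus strand: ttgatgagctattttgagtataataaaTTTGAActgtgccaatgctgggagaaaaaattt
CDC20, chr1:43358889-43358948, plus strand: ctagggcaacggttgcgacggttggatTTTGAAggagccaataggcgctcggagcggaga

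Genes of amino acid supply, lipid synthesis and protein folding were also higher in MEC1. ATF4 is a transcription factor that cells raise when amino acids are short or proteins misfold, and 26 of the 29 tested genes of its response were called higher in MEC1 and 0 higher in EHEB, with a median log2 difference of 2.05. SLC7A5, the transporter of large neutral amino acids, was at 331, 334 and 311 CPM in MEC1 and at 13.7, 10.6 and 12.2 CPM in EHEB. PHGDH, the first enzyme of serine synthesis, was at 38 to 42.4 CPM in MEC1 and 0.616 to 1.38 CPM in EHEB. CBS, which draws homocysteine into cysteine synthesis, was at 18.9 to 19.5 CPM in MEC1 and had 0 counts in EHEB, at least 271-fold higher in MEC1. The libraries of the lines did not overlap for any of these genes. As they were picked for the largest differences in their list, this adds no support.

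Of 27 tested genes of cholesterol and fatty acid synthesis, 25 were called higher in MEC1 and 0 higher in EHEB, with a median of 1.29. By DESeq2, in the fit of 9 DMSO libraries, under the stricter filter and with the third MEC1 library left out, 1 was called higher in EHEB. SCD, which desaturates fatty acids, was at 1842, 1887 and 1678 CPM in MEC1 and at 216, 210 and 202 CPM in EHEB, and the sterol demethylase CYP51A1 was 4.35-fold higher. Genes of protein folding in the endoplasmic reticulum were called higher in MEC1 for 17 of 23 and in EHEB for 2, with a median of 0.99. DERL3, which helps to export misfolded proteins, led with a log2 difference of 4.69 (SE 0.12), followed by ERN1, the sensor IRE1, and MANF, a secreted stress factor, at 2.38 (SE 0.07) and 2.15 (SE 0.11). Glycolysis and hypoxia genes were called higher in MEC1 for 20 of 35 and in EHEB for 6. The oxygen sensor EGLN3, at 55.2 to 76.6 CPM in EHEB and under 0.1 CPM in MEC1, and NDRG1, 23.2-fold higher in EHEB, ran against the direction of most of that list.

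The ATF4 response genes were searched for the letters TGATGNAA, part of the element that ATF4 binds with a C/EBP partner, and 5 of 24 with a window held them (20.8%), against 2.57% of the tested genes with a window. The sterol-element letters TCACNCCAC were present in 1 of 21 genes of lipid synthesis (4.76%), against 1.21%. The matches of ATF3 and CEBPG, transcription factors that ATF4 itself raises, are shown in the same form as above.
ATF3, chr1:212565190-212565249, plus strand: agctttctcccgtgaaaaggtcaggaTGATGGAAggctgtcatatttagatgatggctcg
CEBPG, chr19:33374045-33374104, plus strand: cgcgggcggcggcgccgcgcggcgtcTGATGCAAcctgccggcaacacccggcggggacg
CEBPG was at 54.9 to 60.2 CPM in MEC1 and 29.6 to 32.4 CPM in EHEB (1.84-fold higher in MEC1), and ATF3, of which the libraries overlapped, was not called (22.7 CPM ± 7.90 in MEC1 and 14.6 ± 0.465 in EHEB, n = 3).

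A large group higher in EHEB was that of interferon-stimulated genes, which cells raise as defence against viruses. None of the 44 tested was called higher in MEC1 by edgeR with TMM scaling (1 was without TMM) and 38 were called higher in EHEB, with a median log2 difference of -1.49. LGALS3BP, a secreted glycoprotein, was at 0.202, 0.341 and 0.419 CPM in MEC1 and at 85.8, 88.9 and 84.2 CPM in EHEB. GBP1, a guanylate-binding GTPase, was at 1.05, 1.63 and 1.23 CPM in MEC1 and at 103, 94.1 and 85.7 CPM in EHEB. IFI27 was at 1.3 to 1.36 CPM in MEC1 and 33.1 to 53.2 CPM in EHEB, and IFI6, another interferon-induced protein, was 6.89-fold higher in EHEB. The letters GAAANNGAA, the core of the interferon-stimulated response element, were found in 24 of 33 of these genes with a window (72.7%) and in 7.80% of the tested genes with one. In the stretch of IFI27 they lie once on each strand, as TTCNNTTTC on the opposite one, and in that of IFI6 they lie on the strand of the gene.
IFI27, chr14:94110616-94110675, plus strand: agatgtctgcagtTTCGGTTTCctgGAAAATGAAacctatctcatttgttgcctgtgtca
IFI6, chr1:27672251-27672310, minus strand: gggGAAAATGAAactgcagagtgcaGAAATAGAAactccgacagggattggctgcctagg

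Antigen presentation followed the same order. Of 20 tested genes of MHC class II presentation, 17 were called higher in EHEB and 2 in MEC1, with a median of -1.38. HLA-DMB, which helps to load peptides, was at 10.6, 10.97 and 11.8 CPM in MEC1 and at 137, 126 and 136 CPM in EHEB, and HLA-DQA1 was 5.34-fold higher in EHEB. HLA genes vary in sequence between people and share reads, so values of single HLA genes are uncertain. In MHC class I presentation 12 of 20 were called higher in EHEB and 3 in MEC1, with a median of -1.09. PSMB9, a subunit of the immunoproteasome, was 2.94-fold higher in EHEB. ERAP2, which trims peptides, went the other way, at 137, 141 and 92.5 CPM in MEC1 and 12.2, 10.9 and 12.2 CPM in EHEB.

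NF-κB is a family of transcription factors that B cells switch on through CD40, the B-cell receptor and viral proteins. Of 32 tested genes of this pathway, 26 were called higher in EHEB and 4 in MEC1 (2 without the first EHEB library), with a median of -0.97. CFLAR, which blocks caspase-8, was at 41.8, 38.2 and 45.1 CPM in MEC1 and at 296, 300 and 317 CPM in EHEB. TRAF1, an adaptor of TNF receptors, showed a log2 difference of -2.65 (SE 0.05) and TNFAIP3, the inhibitor A20, one of -2.37 (SE 0.06). The adaptor TRAF2 and the subunit gene RELA were higher in MEC1, by 2.51-fold and 1.55-fold. Among 25 tested host genes that Epstein-Barr virus is known to raise in B cells, 21 were called higher in EHEB and 3 in MEC1. FSCN1, an actin bundler, was at 42.2, 38.9 and 42.5 CPM in MEC1 and at 534, 532 and 530 CPM in EHEB, and MIR155HG, the host transcript of miR-155, was 12.2-fold higher in EHEB. CR2, described further on, and GPR183 of the same list ran the other way, 28.7-fold and 19.3-fold higher in MEC1. Chemokines and cytokines were called higher in EHEB for 20 of 33 and in MEC1 for 5. The T-cell attractants CCL4 and CCL3 were 10.7-fold and 7.57-fold higher in EHEB, whereas LTB and IL10 were higher in MEC1, by 7.21-fold and 3.31-fold.

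The immunoglobulin transcripts differed in class. IGHM, the μ heavy chain, was at 974, 904 and 930 CPM in MEC1 and at 0.197, 0 and 0 CPM in EHEB. IGHD, the δ chain, was at 12.8 to 14.1 CPM in MEC1 and had 0 counts in EHEB. IGHG1, the γ1 chain, was at 337, 321 and 315 CPM in MEC1 and at 3805, 3282 and 3345 CPM in EHEB. IGKC, the κ light chain, was at 350, 317 and 332 CPM in MEC1 and at 9293, 8677 and 8178 CPM in EHEB, a log2 difference of -4.71 (SE 0.08). MEC1 thus held transcripts of the early and of a switched class, and EHEB of the switched class with next to no μ chain. The γ chain genes are close copies of each other, so the split between IGHG1 and IGHG2, which was 14.8-fold higher in EHEB, is uncertain. Of 12 tested constant-region genes, 3 were called higher in MEC1 and 8 in EHEB.

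The variable genes, looked at after their values were seen, differed as well. In MEC1 IGKV4-1 took at least 99.8% of all κ variable-gene CPM, at 234.1 CPM ± 12.4 (SD, n = 3). In EHEB IGKV1-33 took 71.9 to 74.2%, at 2765 CPM ± 239.2, and its near-identical copy IGKV1D-33 took 25.5 to 27.7%. Among heavy-chain variable genes, IGHV4-59 led in MEC1 with 47.7 CPM ± 5.44 and IGHV1-18 in EHEB with 96.3 CPM ± 8.01.

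B-cell genes were divided. Of 15 tested B-cell markers, 5 were called higher in MEC1 and 7 in EHEB. CD79A, a signalling chain of the B-cell receptor, was at 117, 117 and 111 CPM in MEC1 and at 533, 493 and 523 CPM in EHEB, and MS4A1 was 2.55-fold higher in EHEB. CR2, the complement receptor CD21 through which Epstein-Barr virus enters, was at 281.3, 296 and 283 CPM in MEC1 and at 9.64, 9.07 and 11.2 CPM in EHEB. BANK1, a B-cell scaffold, was 22.1-fold higher in MEC1. CD5, a hallmark of CLL cells, was low in both lines, at 0.134 to 0.382 CPM in MEC1 and 0.910 to 1.12 CPM in EHEB. Of 23 tested genes of the CLL immunophenotype, 7 were called higher in MEC1 and 14 in EHEB, among the latter CD38, at 1.3 to 1.81 CPM in MEC1 and 52.6 to 62.7 CPM in EHEB, and CD200, 11.4-fold higher in EHEB.

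Germinal-centre genes leaned towards MEC1, with 10 of 13 called higher there and 3 in EHEB and a median of 1.69. The 3 in EHEB included the largest difference of the list, RAPGEF5, at 32.9 to 38.8 CPM in EHEB and 0 to 0.134 CPM in MEC1. The others were RGS13 and SERPINA9, 2.53-fold and 1.47-fold higher in EHEB. BCL6, the repressor that maintains the germinal-centre state, was at 10.7, 11.8 and 11.4 CPM in MEC1 and at 0.664, 0.622 and 0.946 CPM in EHEB, and MYBL1 was 12.98-fold higher in MEC1. PRDM1, the master regulator of plasma-cell fate, ran the other way, at 13.1, 12.7 and 10.0 CPM in MEC1 and 323, 291 and 277 CPM in EHEB. Plasma-cell genes as a list were split, with 6 of 14 called higher in MEC1, led by DERL3 and MZB1, and 7 in EHEB, led by CD38 and PRDM1. Of 33 tested B-cell transcription factors, 13 were called higher in each line, with SOX4 75.2-fold higher in EHEB and TCF3 7.35-fold higher in MEC1. IKZF1, the lymphoid regulator Ikaros, was at 208, 205 and 231 CPM in MEC1 and at 20.9, 7.11 and 21.5 CPM in EHEB. Cytidine deaminases were mixed, with APOBEC3B 3.61-fold higher in MEC1 and APOBEC3C 2.31-fold higher in EHEB, and 6 and 4 of 12 called in the respective line.

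Of 29 tested genes of B-cell receptor signalling, 18 were called higher in EHEB and 6 in MEC1, with a median of -0.43. PIK3CD, which encodes the kinase that idelalisib blocks, was at 197, 196 and 178 CPM in MEC1 and 295, 299 and 303 CPM in EHEB, a 1.57-fold difference. PIK3AP1, the adaptor BCAP, was 6.58-fold higher in MEC1, and the phosphatase gene PTPRC (CD45) 3.25-fold. BCL2, whose protein venetoclax blocks, differed little, at 448, 470 and 460 CPM in MEC1 and 529, 545 and 546 CPM in EHEB (log2 difference -0.23, SE 0.04, edgeR adjusted p = 0.0023), and the call was lost when library size alone set the scale (-0.11, adjusted p = 0.11). The survival genes BCL2L1 (BCL-XL) and MCL1 were higher in EHEB by 6.08-fold and 3.66-fold. BCL2L11, the death protein BIM, was at 13.4 to 17.4 CPM in MEC1 and at 51.9, 30.5 and 133.6 CPM in EHEB, where the third library stood well above the others. Of 18 tested BCL2 family genes, 6 were called higher in MEC1 and 9 in EHEB, and of 22 death receptor and caspase genes, 5 and 11, with CASP1 30.3-fold higher in EHEB and CASP8 2.36-fold higher in MEC1.

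At the cell surface, EHEB held more of several adhesion and checkpoint genes. ITGA5, an integrin chain that binds fibronectin, was at 0.179 to 0.340 CPM in MEC1 and 62.6 to 69.3 CPM in EHEB, and CD44 was 7.10-fold higher in EHEB. CXCR4, which draws cells to the marrow stroma, was 2.89-fold higher in MEC1. In all, 17 of 29 homing and adhesion genes were called higher in EHEB and 7 in MEC1. Costimulatory and checkpoint genes were called higher in EHEB for 17 of 28 and in MEC1 for 6. LAG3 was 67.6-fold and PDCD1LG2 (PD-L2) 9.45-fold higher in EHEB, while HAVCR2 (TIM-3) was 28.3-fold higher in MEC1.

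Both lines held transcripts that are usual in other lineages. LCK, a kinase of T cells, was at 46.8, 45.7 and 46.7 CPM in MEC1 and had 0 counts in EHEB, at least 658-fold higher. PRF1 (perforin) and GNLY (granulysin), of cytotoxic cells, were at 238.6 to 245 and 40.3 to 51.8 CPM in MEC1 and below 5 CPM in EHEB. EHEB in turn held BCL11B, a regulator of T-cell fate, at 115 to 117 CPM against 0.549 to 0.896 CPM in MEC1, and VCAN, a matrix proteoglycan listed with myeloid genes, at 56.5 to 84.0 CPM against 0 counts. As whole lists, T-cell markers (11 of 15 tested) were called higher in MEC1 for 4 and in EHEB for 5, with a summed level of 140 to 144.5 CPM in MEC1 and 257 to 280 CPM in EHEB. Myeloid markers (6 of 12 tested) were called for 1 and 4, with sums of 7.71 to 9.97 and 84.8 to 117 CPM. NK-cell markers (7 of 9 tested) were called for 3 and 3, with sums of 294 to 305 and 29.3 to 32.4 CPM. Stromal and epithelial markers (7 of 12 tested) were called for 2 and 4, with sums of 29.5 to 36.4 and 23.5 to 23.9 CPM. Single members were high in either line. Among T-cell markers CD3E was at 4.66 to 5.41 CPM in EHEB and 0 to 0.181 CPM in MEC1, CD2 was 12.5-fold higher in EHEB, and TRBC1 was at 4.37 to 5.78 CPM in MEC1 with 0 counts in EHEB. The myeloid markers CD33 and S100A9 had 0 counts in MEC1 and were at least 74.8-fold and 35.6-fold higher in EHEB, whereas CEBPA was 15.6-fold higher in MEC1. The NK-cell markers called higher in EHEB, against PRF1 and GNLY, were KLRD1, NCR1 and NCAM1. They averaged 20.6, 2.65 and 0.664 CPM in EHEB and 9.44, 0.294 and 0.0850 CPM in MEC1. The keratins KRT18 and KRT8 averaged 2.89 and 1.05 CPM in EHEB and 0.405 and 0 CPM in MEC1, while CDH1, the epithelial cadherin, was at 21.6 to 26.4 CPM in MEC1 and 0.198 to 0.503 CPM in EHEB. The part of other cells in these results was not tested.

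The protein-coding autosomal genes with the largest differences in mean log2(CPM + 1) were named for each line. In EHEB they were ABCA12, KIAA1671, CCND2, PTPN14, ADGRA3, LAMP3, ADGRL2, CDC42BPA, EVC and KRT17. ABCA12, a lipid transporter of skin, was at 817, 853 and 785 CPM in EHEB and at 0.0448, 0.161 and 0.105 CPM in MEC1, and KRT17, a keratin, at 176 to 189 CPM and 0 counts, at least 2660-fold higher. LAMP3, a lysosomal protein of mature dendritic cells, and EVC, a cilium protein, were at least 3534-fold and 3127-fold higher in EHEB. In MEC1 they were GDA, TBXT, NCS1, PALD1, PPM1L, CR1, CCDC74A, PRF1, C1orf21 and LCK. TBXT, the mesoderm regulator brachyury, was at 83.4, 79.3 and 93.3 CPM in MEC1 and had 0 counts in EHEB, at least 1211-fold higher, and GDA, guanine deaminase, was at 112 to 122 CPM against 0.144 to 0.442 CPM. CR1, the complement receptor CD35, stood at 63.4 to 67.0 CPM in MEC1 and 0 to 0.295 CPM in EHEB.

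Silence in one line was more common in MEC1. Among 18407 protein-coding autosomal genes, 316 had 0 counts in all MEC1 libraries and 1 CPM or more in every EHEB library, and 56 showed the reverse. Some genes close to silence lay side by side. Among genes that averaged at least 1 CPM in a line, runs of at least 4 neighbours were sought. In 5 runs no gene had more than 3 counts in any MEC1 library, and EHEB had no such run. Genes of these runs entered only through their level in EHEB, and MEC1 had more genes at 0. The number of runs was not set against chance. The longest, of 7 genes at chr1:152212076-152911886, is part of the epidermal differentiation cluster and runs from HRNR through FLG and the LCE1 genes to IVL, with IVL (involucrin) at 46.8 CPM and HRNR (hornerin) at 11.1 CPM in EHEB. Another, of 5 genes at chr4:5014586-5893086, holds EVC, EVC2 and STK32B, the last at 64.6 CPM in EHEB.

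Genes that handle the drugs of the study differed in both directions. Of 21 tested genes of fludarabine handling, 10 were called higher in MEC1 and 7 in EHEB. DCK, the kinase that activates fludarabine, was at 132, 143.1 and 134.3 CPM in MEC1 and 35.1, 34.8 and 35.5 CPM in EHEB. The ribonucleotide reductase subunit RRM1, one of the targets of the drug, was 4.12-fold higher in MEC1, and RRM2B, the p53-induced subunit, 3.61-fold higher in EHEB. ADA, adenosine deaminase, was 4.97-fold higher in EHEB. ABC transporters were called higher in MEC1 for 5 of 16 and in EHEB for 6. Of 32 tested cytochromes P450 and conjugating enzymes, 20 were called higher in EHEB and 4 in MEC1, with a median of -0.96. GSTM1, a glutathione transferase, was at 0.493 to 0.837 CPM in MEC1 and 16.2 to 19.2 CPM in EHEB. Of 10 tested AMPK subunits and upstream kinases, 4 were called higher in EHEB and 0 in MEC1 (1 without the second MEC1 library), led by PRKAG1 (log2 difference -1.54, SE 0.12) and PRKAA1 (-1.15, SE 0.05).

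RNA of the mitochondrial genome and of stress genes moved with the line as well. Of 15 tested mitochondrially encoded genes, 12 were called higher in EHEB and 0 in MEC1, with a median of -0.90. MT-CO1 was at 2194, 2817 and 1944 CPM in MEC1 and 12678, 11086 and 9412 CPM in EHEB. Of 20 genes listed for RNA quality and stress, 12 were called higher in EHEB, led by EGR1, HSPH1 and EGR3, and 3 in MEC1. Their summed level was 765 to 852 CPM in MEC1 and 1859 to 2066 CPM in EHEB. The part of RNA quality in the differences between the lines was not tested.

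The same contrast was then made in libraries that the vehicle comparison did not use. Both lines received fludarabine at 50 µM, ibrutinib at 5 µM or idelalisib at 10 µM, again for 48 h in MEC1 and 96 h in EHEB. With fludarabine 11261 of 16483 genes outside X and Y were called (68.3%), with ibrutinib 10839 of 16630 (65.2%) and with idelalisib 11956 of 16707 (71.6%). Of the genes called under vehicle that could also be tested with the drug, 75.5, 76.0 and 75.3% were called in the same direction with fludarabine, ibrutinib and idelalisib, and 4.77, 3.37 and 7.07% in the opposite one. For genes called under vehicle with a difference above 2-fold, the shares in the same direction were 85.9, 87.9 and 86.7%.

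The lists showed where the line difference held. All 30 mitosis genes were called higher in MEC1 with each drug, with medians of 2.32, 1.69 and 3.09 with fludarabine, ibrutinib and idelalisib. Replication genes were called higher in MEC1 for 32, 34 and 35 of 35. p53 targets were called higher in EHEB for 27, 24 and 23 of 27, with a median of -2.42 with fludarabine. Interferon-stimulated genes, of which 38 of 44 were higher in EHEB under vehicle, were called higher in EHEB for 31, 24 and 25 and in MEC1 for 8, 12 and 16. NF-κB genes were called higher in EHEB for 23, 27 and 28 of 32. The ATF4 response had medians of 0.88, 0.73 and 0.83 with the drugs, against 2.05 under vehicle.

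UGT2B17 was higher in EHEB with every drug. CPM with a drug were scaled over the 6 libraries of that drug, apart from the vehicle libraries. Levels of different treatments are therefore not on one scale, and a drug effect within a line cannot be read from them. With fludarabine it was at 11.03, 12.2 and 13.1 CPM in MEC1, ordered by level, and at 71.9, 73.8 and 74.7 CPM in EHEB (log2 difference -2.60, SE 0.08). With ibrutinib the MEC1 libraries held 35.8, 37.2 and 38.6 CPM and the EHEB libraries 83.5, 83.6 and 87.5 CPM (-1.19, SE 0.07). With idelalisib the values were 42.7, 47.4 and 48.1 CPM in MEC1 and 68.8, 82.0 and 83.6 CPM in EHEB (-0.76, SE 0.09, edgeR adjusted p = 0.00028). The libraries of the lines did not overlap under any treatment, though the gap was smallest with idelalisib. An interaction term of line and treatment, fitted over 12 libraries at a time (DMSO and 1 drug in both lines), tested whether the line difference itself changed. It was called for 5340 of 17478 genes with fludarabine (30.6%), for 4461 of 17484 with ibrutinib (25.5%) and for 6848 of 17598 with idelalisib (38.9%), UGT2B17 among them each time.

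**Figure D3:**
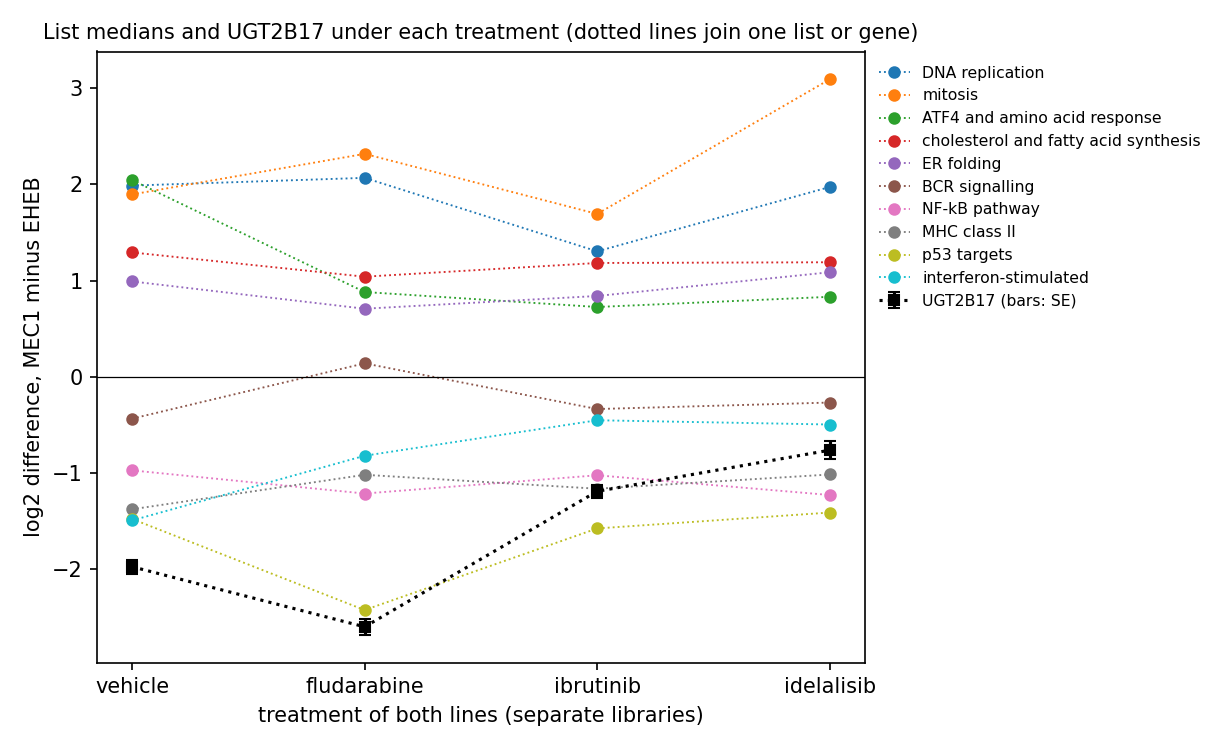
Log2 difference, MEC1 minus EHEB (vertical), under vehicle and with each drug given to both lines (horizontal); round points are medians of 10 gene lists, squares are UGT2B17 with its SE, and dotted lines only join points of one list or gene. The mitosis median is lowest with ibrutinib, at 1.69, and the p53 target median highest with idelalisib, at -1.41, and UGT2B17 runs from -2.60 with fludarabine to -0.76 with idelalisib.

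By position, the difference was not even over the genome. The median log2 difference of tested protein-coding genes was highest on chromosome 9, at 0.38 over 541 genes, and lowest on chromosomes 4 and 6, at -0.30 and -0.29. Chromosome 9 was divided along its length. In the bin chr9:130000001-140000000, 82 of 109 genes were called higher in MEC1, with a median of 1.09, whereas in chr9:1-10000000 23 of 33 were called higher in EHEB, with a median of -1.26. On chromosome 6, 3 adjoining bins from chr6:100000001-110000000 to chr6:120000001-130000000 had medians of -1.15, -1.44 and -1.15, and in the middle one 30 of 37 genes were called higher in EHEB. SESN1, described with the p53 targets, lies in the first of them. These medians are descriptions of position without a test, and the data hold no DNA measurement.

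**Figure D4:**
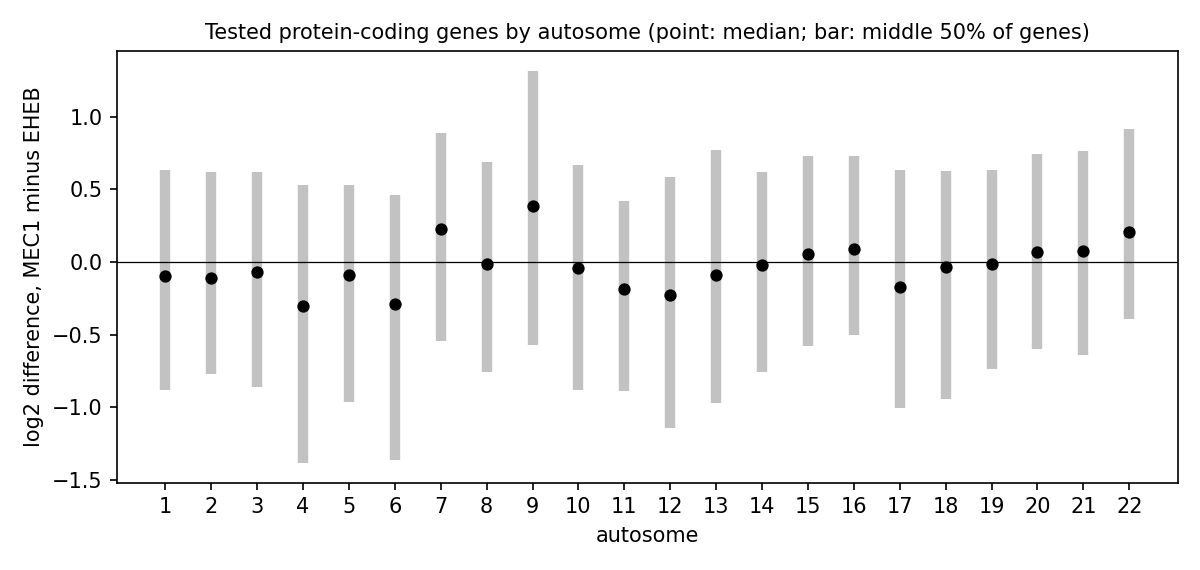
Median log2 difference, MEC1 minus EHEB (vertical), of the tested protein-coding genes of each autosome (horizontal); points are medians and grey bars the middle 50% of genes. Chromosome 9 has the highest median, 0.38, and chromosome 4 the lowest, -0.30, and the bars of all autosomes cross 0.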

How the data were processed

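Per the labels, the authors trimmed reads with Trimmomatic, aligned them to GRCh38 with HISAT2 2.1 and deposited StringTie 1.3.4 estimates per gene, which are expected counts. The sources used here give neither strand nor annotation release, so reads of a gene and its antisense partner cannot be told apart. The values are whole numbers. Among low values 1 was the most frequent, and 3, 6, 8 and 11 were more frequent than their neighbours. The step behind this pattern is not given in the sources used here, so a count may not be 1 molecule. Counting intervals take each count as 1 independent event, so they may be too narrow even for counting error.

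Libraries were grouped by sample title. An entry without a symbol (0.00384% of counts) was left out. Of 37550 entries, 98.83% have a position from GENCODE on GRCh38, matched by symbol. The 6 DMSO libraries were fitted in edgeR 4.0.16 (R 4.3.3) with TMM scaling, the quasi-likelihood F-test, filterByExpr (minimum count 10, minimum total 15) and Benjamini-Hochberg adjustment over 16595 genes, of which 624 on X or Y were then set aside. SEs are the size of the log2 difference divided by the square root of F. Counts were also simulated, with 16595 genes and 200 changed by 1.5 on the log2 scale. On these, edgeR called 72.5% of the changed genes and 12 others, limma-voom 71.5% and 11, and DESeq2 81.5% and 56. In the data 68.7% of genes were called, so the simulation does not test scaling or false calls at such a share. Drug and interaction fits used the same steps.

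The libraries and gene lists were chosen with earlier results of these data known. Named are UGT2B17, UGT2B15, UGT1A6, MDM2, CDKN1A, BCL2, CCND1, CCND2, PIK3CD and CD5, the 10 genes per line with the largest difference in mean log2(CPM + 1) among called, positioned, autosomal protein-coding genes without overlap, and up to 3 members per list and direction by the same measure. MYC, CDC20, ATF3, CEBPG, IFI6, CD22, PAX5, EVC2, STK32B, the LCE1 genes, HRNR, FLG, IVL, UGDH, the UGT genes at 0 and the variable genes fall outside that rule. Sequences are from RefSeq promoter windows. Fold values with 0 counts in a line use a floor of 3 counts per library. DESeq2 1.42.0, limma-voom (limma 3.58.1), other scalings, filters and sets of libraries, and each library left out were the alternatives. Dividing counts by 8/3 and leaving out libraries in the drug fits were chosen after seeing the data. Some genes of the lists are not reported here.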

Additional observations from a re-analysis of the deposited data

Results flagged for a closer look

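The line by treatment interaction, which tests whether the difference between MEC1 and EHEB under a drug departs from that under vehicle, was called for UGT2B17 with each drug. Its log2 interaction was -0.67 with fludarabine (SE 0.10, edgeR adjusted p = 0.00059), so its difference was larger there, and 0.81 with ibrutinib (SE 0.09, adjusted p = 0.00011) and 1.16 with idelalisib (SE 0.12, adjusted p = 1.7e-05), so its difference was smaller with both. UGT2B17 was 1 of many such genes, since the interaction was called for 5340 genes with fludarabine (30.6% of those tested), 4461 with ibrutinib (25.5%) and 6848 with idelalisib (38.9%). The 3 tests share their DMSO libraries.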

How the results depend on the processing

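No paired analysis was possible because the library numbers of the lines differ and none is shared. The counts over all genes and the values of UGT2B17 kept their direction and call, and the counts stayed within 1.5 times, except under the stricter filter (mean CPM of 5 or more), where 3398 genes were called above 2-fold, 1657 higher in MEC1 and 1741 higher in EHEB, since only 10665 genes were then tested. Library size scaling without TMM moved the median of all genes from -0.04 to 0.09 and the share of calls higher in MEC1 from 47.5 to 53.8%. Counts called by DESeq2 and limma-voom were 11078 and 11108, and 98.7 and 99.1% of the genes called by edgeR were shared. With a library left out 10436 to 10645 genes were called. No named gene reversed. Calls lost were those of BCL2, SERPINA9, TP63, HYOU1 and APOBEC3G with library size scaling, of SERPINA9 in the fits of 9 and 36 libraries, of HLA-DQA2, PMAIP1 and HYOU1 in the fit of 36, of TP63 without a low-count filter, and of SERPINA9, TP63 and NFKBIB without some libraries, with an adjusted p of 0.0632 for NFKBIB without the first EHEB library. The median of stromal and epithelial markers turned to 1.90 under the stricter filter, which left 2 of them. With genes at 0 set at their bound, the myeloid median was -3.48 in place of -5.77 and no other list median changed. Counts of list members moved by over 1.5 times mostly under the stricter filter, which tests fewer genes, to 12 and 2 for P450 and conjugating enzymes higher in EHEB and MEC1, to 2 and 2 for T-cell, 2 and 0 for myeloid, 1 and 1 for stromal markers, to 1 for NK-cell markers and germinal-centre genes higher in EHEB, and to 3 for ABC transporters and 1 for stress genes higher in MEC1. Without TMM, cytidine deaminases higher in EHEB fell to 2, ER folding genes higher in EHEB to 1, and stress genes higher in MEC1 came to 5. In the fit of 36 libraries 1 member each of MHC class II and p53 targets was higher in MEC1 and 1 of ER folding in EHEB. The cause of the changes without TMM and in the fit of 36 libraries was not tested. Of genes without the low-count filter, 11165 were called, 10471 of them shared with the 10970. The other list medians that moved by over 1.5 times are not printed above.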
